A study of Mus musculus with 6 samples.

Results

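Semaphorins, plexins and neuropilins are a family of signals and their receptors, and 31 of their genes were followed here through RNA-seq of the newborn mouse inner ear. The list holds 20 semaphorins, which are the ligands, and 11 receptors, of which 9 are plexins and 2 are neuropilins. Each symbol matched 1 Ensembl gene among the 39179 genes counted. Counts scaled to the depth of the library are written as CPM, and all 31 genes had at least 1 CPM in 3 or more libraries, as did 14723 genes in all. These 31 genes also passed when 1 CPM was asked of all 6 libraries.

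The libraries came from the sensory epithelium of the cochlea, the organ of hearing, and of the vestibule, the organ of balance, with 3 libraries for each. All were from wild-type C57Bl/6J mice at postnatal day 0 (P0), with males and females pooled. Each tissue was dissected from 20 ears of 10 mice, and the sources do not say whether the 3 libraries of a tissue came from separate animals, so the p-values measure only the spread between these libraries. That spread included tissue content. The muscle gene Acta1 had 45, 133 and 4305 counts in the cochlear libraries, and the neuronal gene Stmn2 had 1043, 75 and 376 counts in the vestibular ones. The comparison asks which of these genes differ in mRNA level between the tissues.

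Semaphorins are secreted or membrane-bound proteins that steer growing axons, blood vessels and migrating cells, mostly by repulsion. Plexins carry the signal across the membrane and act on small GTPases and the cytoskeleton. Most class 3 semaphorins, the secreted ones of vertebrates, bind a neuropilin that pairs with a plexin, while the other classes bind plexins directly. In the inner ear this system is known for guiding the peripheral processes of ganglion neurons towards hair cells. The mRNA of a tissue pool does not say which cells make it, and fewer cells of a type cannot be told apart from less RNA per cell.

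Between 24464483 and 29225105 read pairs were counted on genes per cochlear library and between 25476572 and 33664793 per vestibular library, so that 1 CPM stands for 24.5 to 33.7 counts. Pairs of libraries differed by more than sampling noise also within a tissue. Markers of the labelled tissue were present in all 6 libraries, with 10 hair cell markers summing to 618 to 846 CPM in the cochlea and 1125 to 1326 CPM in the vestibule. Markers of other cell types were present too. Cochlea replicate 3 stood apart in skeletal muscle markers, which summed to 332 CPM there and to between 5.94 and 31.4 CPM in the other 5 libraries. Values below are CPM after TMM scaling, which adjusts library sizes for differences in composition, and log2 fold changes are given as vestibule minus cochlea, with their standard error (SE). A gene is said to be called where edgeR's quasi-likelihood test gave an adjusted p (Benjamini-Hochberg, over the 14723 genes) under 0.05.

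Among the ligands the class 3 genes were mostly higher in the vestibule, led by Sema3d and Sema3e, while Sema5b was the ligand furthest towards the cochlea. The test called 8 semaphorins as higher in the vestibule (Sema3a, Sema3b, Sema3c, Sema3d, Sema3e, Sema3g, Sema6d and Sema7a), against 15.8% of all genes tested. It called 4 as higher in the cochlea (Sema3f, Sema4f, Sema5b and Sema6b), against 11.6% of all genes. Together 12 of 20 ligands (60.0%) were called, against 27.4% of all genes, and 8 were not. The median log2 fold change of the 20 ligands was 0.19, beside 0.0048 over all genes. The 3 libraries of a tissue did not overlap with those of the other tissue for 11 of 20 ligands (55.0%), against 41.8% of all genes. Among the receptors 2 of 11 (18.2%) were called, Plxna4 and Plxnb3, both higher in the vestibule, and none was called as higher in the cochlea. Their median log2 fold change was 0.40, and 4 of 11 (36.4%) did not overlap between the tissues. Leaving out 1 library changed some of these counts by more than 1.5 times, to 5 ligands higher in the vestibule without vestibule replicate 1, to 2 ligands higher in the cochlea without vestibule replicate 2 and to 5 receptors higher in the vestibule without cochlea replicate 3. With the replicate number added to the fit as a block, 1 ligand was called as higher in the cochlea.

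**Figure D1:**
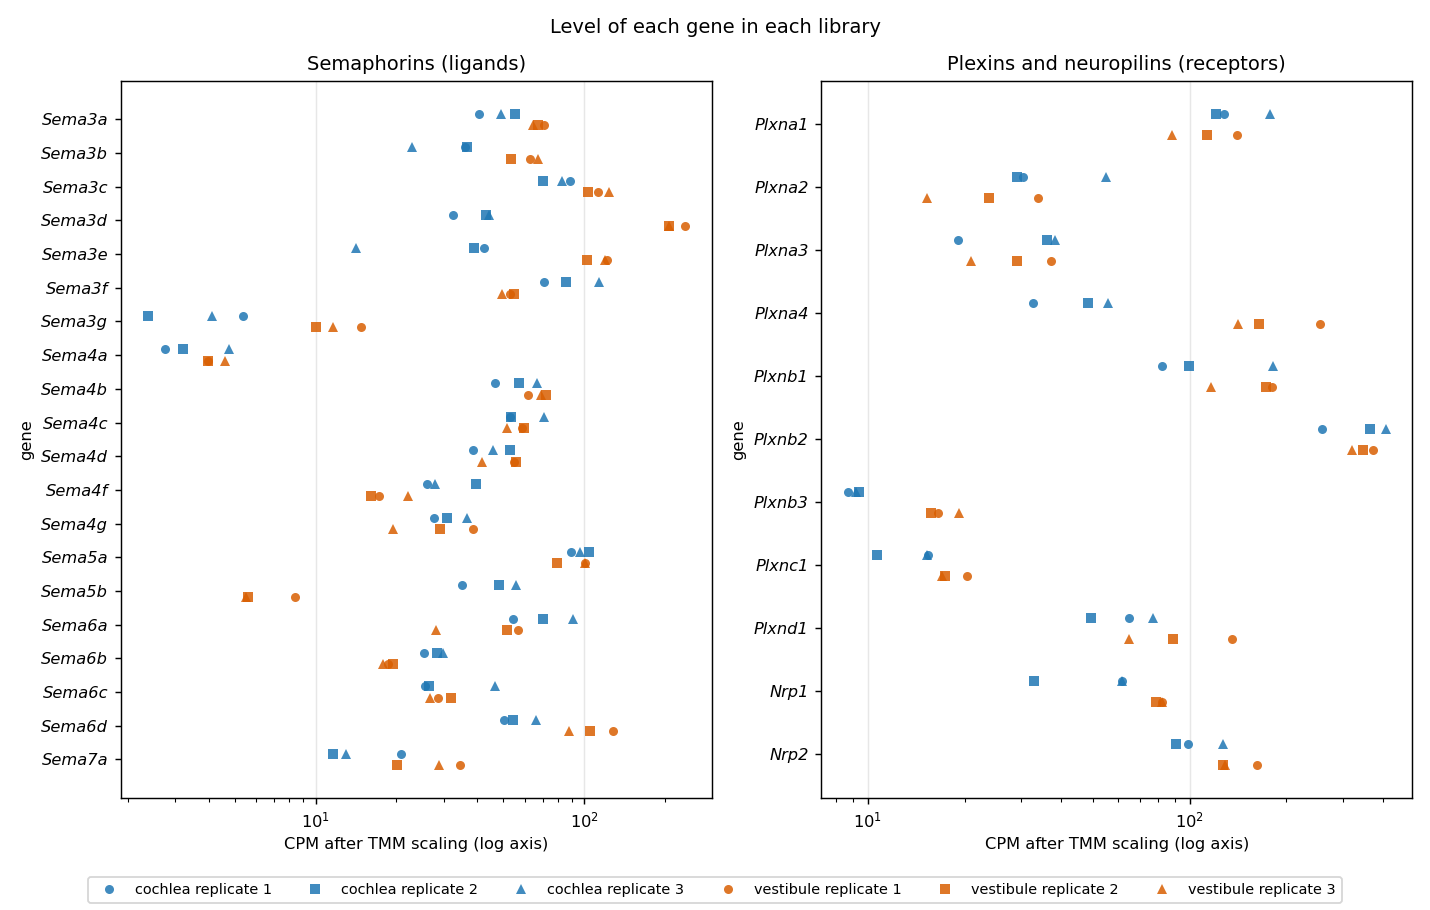
Level of each gene in each library, in CPM after TMM scaling on a log axis, with ligands on the left and receptors on the right. Blue points are the 3 cochlear libraries and orange points the 3 vestibular ones, and the marker shape gives the replicate number. Sema3d, Sema3e and Plxna4 lie apart towards the vestibule and Sema5b towards the cochlea, while both colours mix for Plxnb2 and Sema4c.

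The starts of 4 genes are shown because they are the called members with the largest changes for which RefSeq (GRCm38.p6) gave a window around the start of its own transcript. For Sema3d, Sema5b and Sema3g that start is not the GENCODE gene start, and the Sema3d window ends before the GENCODE start printed further on. The letters searched, on both strands, were TATAAA for the TATA box. For the GC box they were GGGCGG. For the CCAAT box they were those of its name. Capitals mark the matches, which do not overlap each other. The Sema5b window is chr16:35541112-35541411, that of Sema3d chr5:12382916-12383215, that of Sema3e chr5:14025026-14025325 and that of Sema3g chr14:31217623-31217922, all on the plus strand.
Sema5b: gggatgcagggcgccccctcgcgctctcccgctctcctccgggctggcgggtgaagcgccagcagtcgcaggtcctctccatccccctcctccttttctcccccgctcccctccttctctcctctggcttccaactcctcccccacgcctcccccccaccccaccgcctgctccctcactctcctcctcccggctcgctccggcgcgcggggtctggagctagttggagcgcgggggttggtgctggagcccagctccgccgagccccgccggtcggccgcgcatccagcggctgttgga
Sema3d: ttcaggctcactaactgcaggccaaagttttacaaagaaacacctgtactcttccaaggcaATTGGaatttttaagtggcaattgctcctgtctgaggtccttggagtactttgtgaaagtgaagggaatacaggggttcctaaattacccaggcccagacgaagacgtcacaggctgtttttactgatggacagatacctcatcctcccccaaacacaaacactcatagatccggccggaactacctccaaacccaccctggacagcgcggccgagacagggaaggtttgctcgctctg
Sema3e: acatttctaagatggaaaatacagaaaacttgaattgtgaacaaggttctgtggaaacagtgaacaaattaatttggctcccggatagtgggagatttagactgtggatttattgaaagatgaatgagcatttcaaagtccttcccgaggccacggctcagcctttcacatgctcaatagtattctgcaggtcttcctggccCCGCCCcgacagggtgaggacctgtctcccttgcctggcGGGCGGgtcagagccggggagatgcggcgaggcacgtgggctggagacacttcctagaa
Sema3g: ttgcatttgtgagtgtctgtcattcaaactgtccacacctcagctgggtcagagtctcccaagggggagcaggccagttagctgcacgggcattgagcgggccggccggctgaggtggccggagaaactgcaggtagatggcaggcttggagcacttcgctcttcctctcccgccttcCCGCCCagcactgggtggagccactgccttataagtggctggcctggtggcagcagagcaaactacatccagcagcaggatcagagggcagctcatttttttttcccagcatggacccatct
The Sema5b window held 27 CpG dinucleotides and none of the 3 motifs. Those of Sema3d, Sema3e and Sema3g held 8, 11 and 8 CpG dinucleotides. Sema3d had 1 CCAAT match, Sema3e had 2 GGGCGG matches and Sema3g had 1. Windows were found for 26 of the 31 members, 37 windows in all, and Plxna1, Plxna4, Sema3b, Sema3f and Sema6a were not among them. TATAAA was in 0 of these 37 windows and in 13.6% of the 32851 windows of all genes. GGGCGG was in 27 member windows (73.0%) and in 35.7% of all windows, and CCAAT in 7 (18.9%) and in 37.4%. The 9 windows of members higher in the vestibule held GGGCGG in 55.6%, the 4 windows of members higher in the cochlea in 2 cases and the 24 windows of members not called in 83.3%. CCAAT was in 1 of these 9, 2 of these 4 and 4 of these 24 windows. Member windows were also richer in G and C, with a median of 63.7% and 15 CpG dinucleotides against 52.7% and 7 in all windows.

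Class 3 semaphorins were called in 7 of 7 cases, 6 towards the vestibule and Sema3f towards the cochlea, against 27.4% of all genes tested. Their median log2 fold change was 0.95. With the replicate number as a block in the fit, Sema3a, Sema3c and Sema3f were not called. The calls of Sema3a and Sema3c, given further on, depended on single libraries. Sema3d (ENSMUSG00000040254), a secreted guidance cue known from heart and vessel development, stood at 32.6, 43.3 and 44.2 CPM in the cochlea and at 238, 208 and 207 CPM in the vestibule. Every vestibular library was thus far above every cochlear one. Its log2 fold change was 2.44 (SE 0.16), 5.43-fold higher in the vestibule, with an adjusted p of 1.4e-05 in edgeR's quasi-likelihood test. Sema3e (ENSMUSG00000063531), a ligand that can bind plexin D1 without a neuropilin, stood at 42.4, 38.8 and 14.2 CPM in the cochlea and at 122, 103 and 120 CPM in the vestibule. The tissues did not overlap, and cochlea replicate 3 lay well below the other cochlear libraries. Its log2 fold change was 1.86 (SE 0.35, edgeR adjusted p = 0.0045), and 1.50 without cochlea replicate 3 (adjusted p = 0.00020).

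Sema3g, a neuropilin 2 ligand known from the endothelium of arteries, was low in both tissues, at 5.39, 2.37 and 4.12 CPM in the cochlea and 14.8, 10.02 and 11.7 CPM in the vestibule. The lowest vestibular library was above the highest cochlear one, with a log2 fold change of 1.62 (SE 0.30, edgeR adjusted p = 0.0043). Sema3b, another neuropilin ligand, stood at 35.9, 36.5 and 22.8 CPM in the cochlea and 63.0, 53.5 and 67.3 CPM in the vestibule. It rose without overlap, by 0.95 on the log2 scale (SE 0.20, edgeR adjusted p = 0.0069).

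Sema3a, the best-known repellent of sensory axons and a neuropilin 1 ligand, stood at 40.8, 55.1 and 48.9 CPM in the cochlea and 70.7, 67.6 and 64.3 CPM in the vestibule. Sema3c, a cue known from the outflow tract of the heart, stood at 88.9, 70.2 and 82.6 CPM and at 113, 104 and 124 CPM. Neither gene overlapped between the tissues, yet both differences were small. The log2 fold change was 0.48 for Sema3a (SE 0.14, edgeR adjusted p = 0.033) and 0.49 for Sema3c (SE 0.14, adjusted p = 0.028). Both calls depended on single libraries. Without cochlea replicate 1 or 3, or vestibule replicate 1 or 2, Sema3a was not called, with adjusted p from 0.052 to 0.11. Without cochlea replicate 2 or any 1 vestibular library, Sema3c was not called, with adjusted p from 0.057 to 0.10.

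Sema3f (ENSMUSG00000034684), a neuropilin 2 ligand and repellent, went the other way within the class. It stood at 70.9, 85.9 and 114 CPM in the cochlea and at 53.0, 55.0 and 49.5 CPM in the vestibule. All cochlear libraries were higher, and they were more spread than the vestibular ones. Sema3f had a log2 fold change of -0.78 (SE 0.18, edgeR adjusted p = 0.011), and it was called with any 1 library left out (adjusted p from 0.0053 to 0.046). It was narrowly not called with the replicate number as a block (edgeR adjusted p = 0.051).

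In GRCm38 (GENCODE vM21) 4 of the 6 class 3 genes higher in the vestibule lie on chromosome 5, on the plus strand. Sema3d spans chr5:12383385-12588948, Sema3a chr5:13125414-13602565, Sema3e chr5:14025276-14256689 and Sema3c chr5:17574281-17730268. The 3 other tested genes that lie within this interval of 5347 kb, Cacna2d1, Hgf and Pclo, were not called. Sema3b (chr9:107597674-107609229) and Sema3f (chr9:107681500-107710475) lie 72.3 kb apart on the minus strand and were called in opposite directions. Of the 2 other tested genes in that interval, Gnai2 was not called and Slc38a3 was called as higher in the vestibule.

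Class 5 semaphorins are membrane proteins with thrombospondin repeats. Sema5b (ENSMUSG00000052133, chr16:35541145-35664732), which signals through plexins A1 and A3, stood at 35.04, 48.1 and 55.6 CPM in the cochlea and at 8.42, 5.62 and 5.51 CPM in the vestibule. The cochlear libraries were all several times above the vestibular ones. This was the largest change among the 31 genes, with a log2 fold change of -2.82 (SE 0.24), 7.06-fold higher in the cochlea, and an adjusted p of 6.1e-05 in edgeR's test. Its sister gene Sema5a ranged from 89.2 to 104 CPM in the cochlea and from 79.4 to 101 CPM in the vestibule, with a log2 fold change of -0.05 (95% interval -0.36 to 0.27).

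Class 4 semaphorins are transmembrane ligands, many of them for B plexins. Sema4f, known from the nervous system, was called, at 26.1, 39.5 and 27.9 CPM in the cochlea and 17.2, 16.1 and 22.1 CPM in the vestibule. The cochlear values were all higher, with a log2 fold change of -0.76 (SE 0.20, edgeR adjusted p = 0.023). The call was lost without cochlea replicate 2, vestibule replicate 1 or vestibule replicate 2, with adjusted p from 0.080 to 0.12. The other 5 were not called, with log2 fold changes of 0.23 for Sema4a, 0.25 for Sema4b, -0.07 for Sema4c, 0.15 for Sema4d and -0.13 for Sema4g. Their tissues overlapped in every case. The 95% intervals were widest for Sema4a, from -0.34 to 0.80, and Sema4g, from -0.67 to 0.41. None of the 5 was called with 1 library left out. The value ran from 0.071 without cochlea replicate 1 to 0.48 without cochlea replicate 3 for Sema4a, from 0.12 to 0.37 without the same libraries for Sema4b, and from 0.032 without cochlea replicate 1 to 0.29 without vestibule replicate 3 for Sema4d.

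Class 6 semaphorins are transmembrane partners of A plexins, and the 4 genes split. Sema6d, a plexin A1 ligand, stood at 50.5, 54.4 and 66.0 CPM in the cochlea and at 128, 105 and 87.8 CPM in the vestibule. It was higher in the vestibule without overlap, by 0.91 on the log2 scale (SE 0.17, edgeR adjusted p = 0.0047). Sema6b, a plexin A4 ligand, stood at 25.3, 28.3 and 29.9 CPM in the cochlea and at 18.6, 19.5 and 17.8 CPM in the vestibule. The replicates lay close together and the cochlea was higher, with a log2 fold change of -0.58 (SE 0.13, edgeR adjusted p = 0.011), which was not called without vestibule replicate 2 (adjusted p = 0.062). Sema6a, a ligand of plexins A2 and A4, ranged from 54.1 to 90.6 CPM and from 28.1 to 56.7 CPM, with a log2 fold change of -0.65 (SE 0.28, adjusted p = 0.12), and was called with DESeq2 (adjusted p = 0.048). With 1 library left out it was not called, and ran from -0.83 without cochlea replicate 1 to -0.39 without vestibule replicate 3. Sema6c was not called, at -0.17 (95% interval -0.71 to 0.36).

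Sema7a, the only class 7 member and a lipid-anchored ligand of plexin C1 and of beta1 integrin, stood at 20.7, 11.6 and 13.0 CPM in the cochlea and at 34.4, 20.1 and 28.8 CPM in the vestibule. Cochlea replicate 1 was above vestibule replicate 2, so the tissues overlapped. The log2 fold change of Sema7a was 0.88 (SE 0.27, edgeR adjusted p = 0.039), and the call was lost when cochlea replicate 2 or 3 or vestibule replicate 1 or 3 was left out (adjusted p from 0.072 to 0.14).

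**Figure D2:**
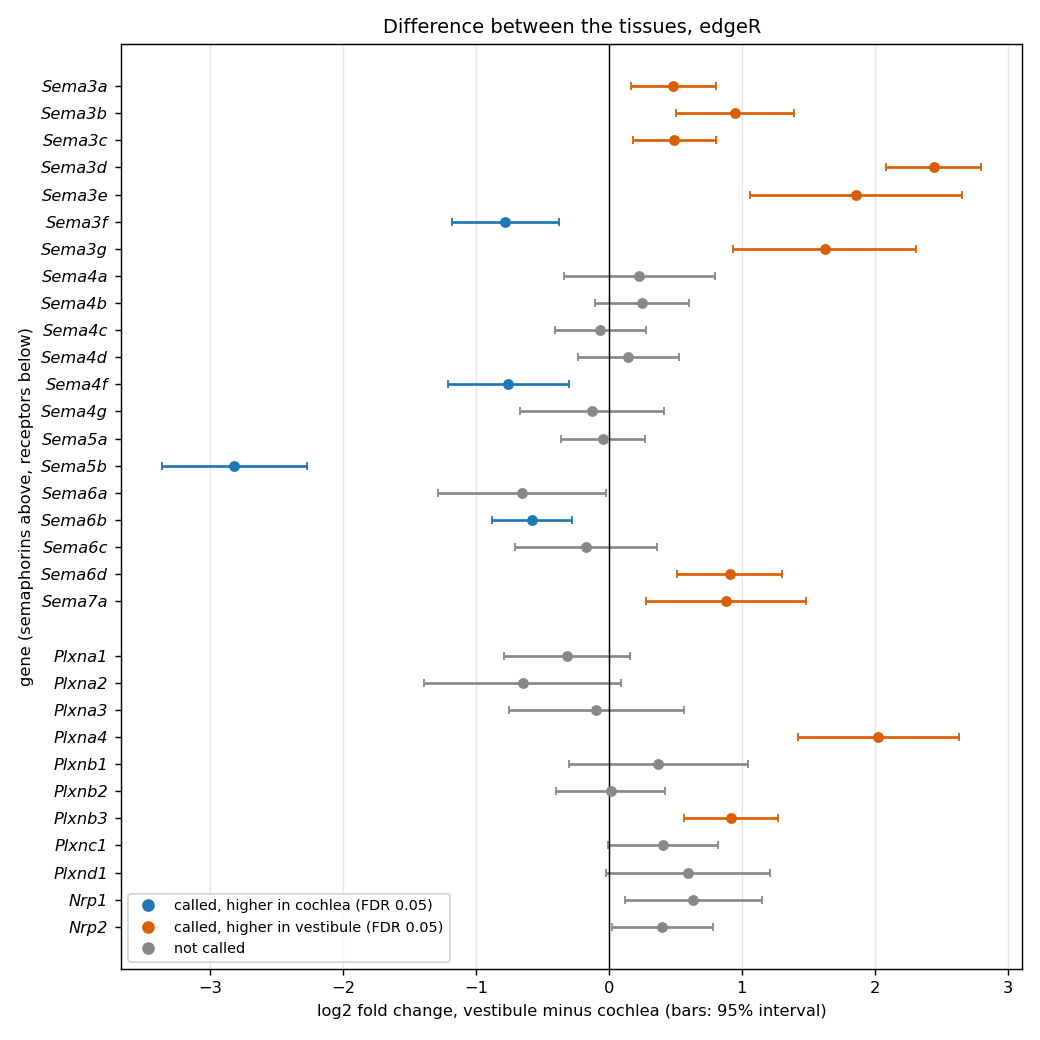
Log2 fold change of each gene, vestibule minus cochlea, from edgeR, with bars for the 95% interval. Orange genes were called as higher in the vestibule, blue genes as higher in the cochlea and grey genes were not called. Sema3d at 2.44 and Plxna4 at 2.03 lie furthest to the right and Sema5b at -2.82 furthest to the left.

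Among the receptors, Plxna4 differed most and the most abundant, Plxnb2, differed least. A plexins are the signalling partners of neuropilins. Plxna4 (ENSMUSG00000029765, chr6:32144268-32588192), known as a receptor for Sema3a and for class 6 ligands, stood at 32.7, 48.5 and 55.9 CPM in the cochlea and at 254, 164 and 141 CPM in the vestibule. The lowest vestibular library was well above the highest cochlear one. This was a log2 fold change of 2.03 (SE 0.27), 4.08-fold higher in the vestibule, with an edgeR adjusted p of 0.00065. The other 3 A plexins were not called and overlapped between the tissues. Plxna1 ranged from 121 to 177 CPM in the cochlea and from 88.2 to 141 CPM in the vestibule, with a log2 fold change of -0.31 (95% interval -0.79 to 0.16). That value ran from -0.47 without vestibule replicate 1 to -0.14 without vestibule replicate 3 and -0.13 without cochlea replicate 3. Plxna2 had a log2 fold change of -0.65 (95% interval -1.39 to 0.09), the receptor value furthest towards the cochlea, and ran from -0.95 without vestibule replicate 1 to -0.39 without vestibule replicate 3 and -0.29 without cochlea replicate 3. Plxna3 was at -0.10 (95% interval -0.76 to 0.56).

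B plexins are receptors mainly of class 4 and 5 semaphorins. Plxnb3, a receptor for Sema5a, stood at 8.70, 9.39 and 9.21 CPM in the cochlea and at 16.5, 15.7 and 19.3 CPM in the vestibule. Its replicates were close and the vestibule was higher, by 0.92 on the log2 scale (SE 0.16, edgeR adjusted p = 0.0025). Plxnb2, a receptor for Sema4c, stood at 259, 363 and 407 CPM in the cochlea and at 371, 345 and 320 CPM in the vestibule. The vestibular libraries lay inside the cochlear range, and the log2 fold change of 0.01 had a 95% interval of -0.40 to 0.42. Plxnb1, the receptor of Sema4d, stood at 82.0, 99.8 and 182 CPM in the cochlea and at 180.4, 173 and 117 CPM in the vestibule. Cochlea replicate 3 was as high as the highest vestibular library, and the log2 fold change was 0.37 (95% interval -0.30 to 1.04, edgeR adjusted p = 0.39). With 1 library left out it ran from 0.15 without cochlea replicate 1 (adjusted p = 0.77) and 0.24 without cochlea replicate 2 to 0.78 without cochlea replicate 3, where it was called (adjusted p = 0.024).

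Plxnc1, the receptor of Sema7a, did not overlap between the tissues but was not called, at 0.40 (95% interval -0.01 to 0.82, edgeR adjusted p = 0.14), and at 0.25 without cochlea replicate 2 (adjusted p = 0.34). Plxnd1, the receptor of Sema3e on endothelial cells, ranged from 49.6 to 77.3 CPM in the cochlea and from 64.7 to 136 CPM in the vestibule. Its log2 fold change was 0.59 (95% interval -0.02 to 1.21, edgeR adjusted p = 0.14), with a range from 0.28 without vestibule replicate 1 (adjusted p = 0.44) to 0.83 without vestibule replicate 3, where it was called (adjusted p = 0.038).

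Neuropilins bind class 3 semaphorins and also vascular endothelial growth factors (VEGFs). Nrp1 stood at 61.9, 32.8 and 61.7 CPM in the cochlea and at 82.2, 78.5 and 82.1 CPM in the vestibule. All 3 vestibular libraries were higher, but cochlea replicate 2 lay far below the other cochlear libraries. Its log2 fold change was 0.63 (95% interval 0.12 to 1.15), which was not called with edgeR (adjusted p = 0.071) and was called with DESeq2 (adjusted p = 0.036). Without cochlea replicate 3 edgeR called it too, at 0.77 (adjusted p = 0.044), while without cochlea replicate 2 it was at 0.38 and not called (adjusted p = 0.076). Nrp2 stood at 98.9, 90.8 and 127 CPM in the cochlea and at 162, 127 and 129 CPM in the vestibule. It was not called, at 0.40 (95% interval 0.02 to 0.78, edgeR adjusted p = 0.11), and with 1 library left out it ran from 0.30 (without cochlea replicate 2, adjusted p = 0.31) to 0.55 (without cochlea replicate 3, where it was called, adjusted p = 0.029). Nrp2 held 56.4% ± 6.71 (SD, n = 3) of the summed neuropilin RPKM in the cochlea and 51.5% ± 3.03 (SD, n = 3) in the vestibule, a difference that an exact two-sided permutation test over libraries did not separate (p = 0.3, where 3 against 3 cannot go below 0.1). The difference of -4.86 percentage points ran from -8.16 without cochlea replicate 1 to -1.45 without cochlea replicate 2.

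Levels of the members differed between libraries of the same tissue in a shared direction. Cochlea replicate 3 was the highest cochlear library for 8 of 11 receptors, and for 37.8% of all genes tested. Vestibule replicate 1 was the highest vestibular library for 10 of 11, and for 38.4% of all genes, and vestibule replicate 3 was the lowest for 8 of 11, and for 39.3%. The ligands did likewise in part, with cochlea replicate 1 the lowest for 15 of 20 (32.6% of all genes), cochlea replicate 3 the highest for 11 of 20 and vestibule replicate 3 the lowest for 11 of 20. Counts in no annotated gene took 4.30%, 4.73% and 7.45% of the listed counts in the cochlear libraries and 6.85%, 7.0% and 5.77% in the vestibular ones. Cochlea replicate 3, the highest for most receptors, had the highest share of all, and vestibule replicate 3, the lowest for most, had the lowest vestibular share. The highest vestibular share was in replicate 2, which was the highest library for 0 of 11 receptors. The part of this share in the values of the members was not tested.

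**Figure D3:**
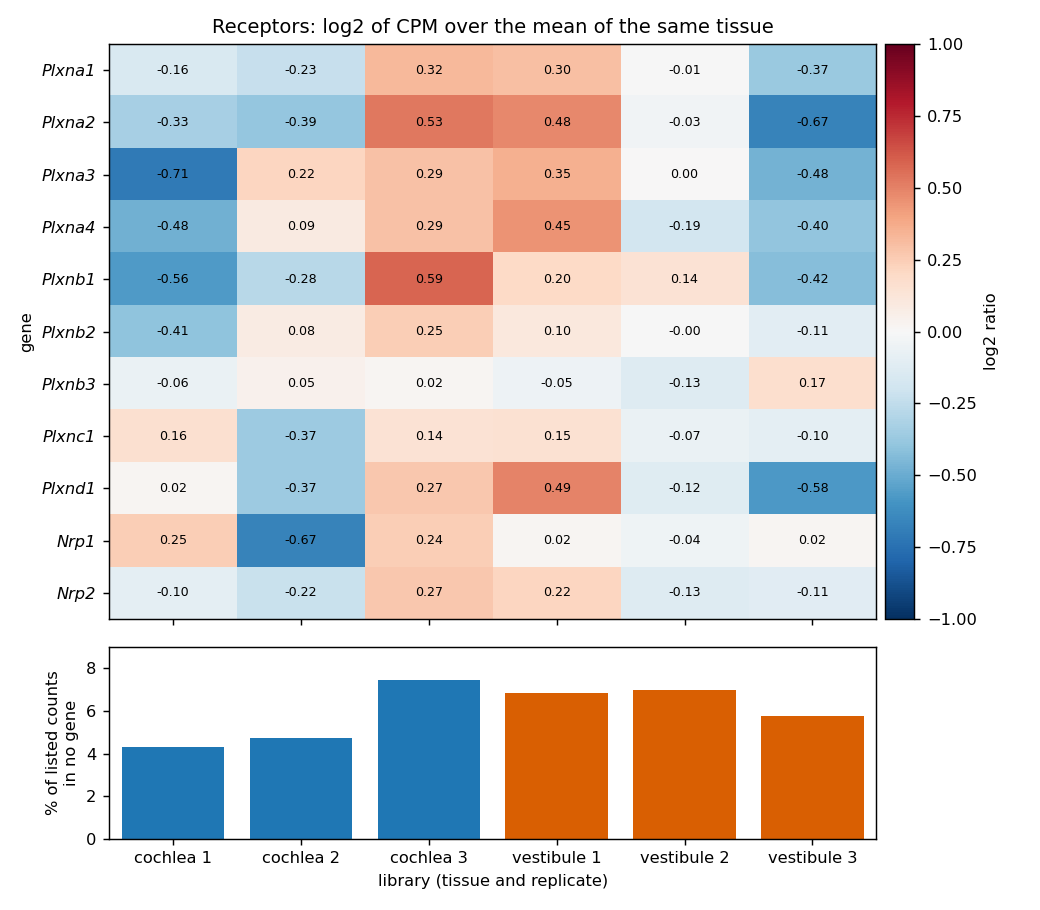
The upper panel gives, for each receptor and library, the log2 ratio of its CPM to the mean of the same tissue, red for above and blue for below. The lower panel gives the percentage of listed counts in no annotated gene. Cochlea 3 and vestibule 1 are mostly red and vestibule 3 mostly blue, and cochlea 3 has the tallest bar at 7.45%.

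Levels of different genes were compared per gene length, as RPKM (reads scaled to the length of the gene and the depth of the library) from the deposited matrix. Plxnb2 was the most abundant receptor in both tissues, at 46.2 ± 10.3 RPKM (SD, n = 3) in the cochlea and 50.8 ± 6.09 RPKM (SD, n = 3) in the vestibule, and its lowest library was above the highest library of any other receptor. It held 48.2% ± 4.16 (SD, n = 3) of the summed plexin RPKM in the cochlea and 41.3% ± 4.48 (SD, n = 3) in the vestibule. This share was chosen after the values were seen and was not tested, and its difference of -6.90 percentage points ran from -9.14 without vestibule replicate 3 to -4.50 without cochlea replicate 2. Plxna4 was seventh of 11 receptors in the cochlea, at 3.91 ± 1.02 RPKM, and the third in the vestibule, at 17.5 ± 6.33 RPKM. In the vestibule Plxna4 overlapped with Plxnb1, above it, and with Nrp2, below it.

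The order of the ligands differed between the tissues at its top. Sema3f led the cochlea at 25.6 ± 6.53 RPKM (SD, n = 3), clear of Sema4c at 12.4 ± 2.45 RPKM. In the vestibule Sema3d led at 34.9 ± 4.30 RPKM (SD, n = 3), clear of Sema3c at 16.6 ± 1.07 RPKM, and Sema3f was the third at 16.2 ± 1.49 RPKM. In the cochlea Sema3d was at rank 13 of 20, at 5.89 ± 0.907 RPKM, and its libraries overlapped with those of Sema4g above it and Sema4f below it. Sema5b moved from rank 11 in the cochlea (6.28 ± 1.44 RPKM) to rank 19 in the vestibule (0.969 ± 0.285 RPKM). Sema4a had the lowest mean in both tissues, at 0.638 ± 0.197 and 0.811 ± 0.0324 RPKM, but overlapped with Sema3g in the cochlea and with Sema5b in the vestibule. Below the leading ligand, neighbours in the order overlapped in most cases. Class 3 genes together held 41.7% ± 1.65 (SD, n = 3) of the summed semaphorin RPKM in the cochlea and 55.6% ± 1.86 (SD, n = 3) in the vestibule, and the libraries did not overlap. The difference was 13.9 percentage points in RPKM and 17.2 in counts, was chosen after the values were seen, and was not tested. Among the class 3 genes Sema3d moved most, from 5.89 to 34.9 RPKM, while Sema3f fell from 25.6 to 16.2 RPKM. The share without Sema3d was not computed.

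**Figure D4:**
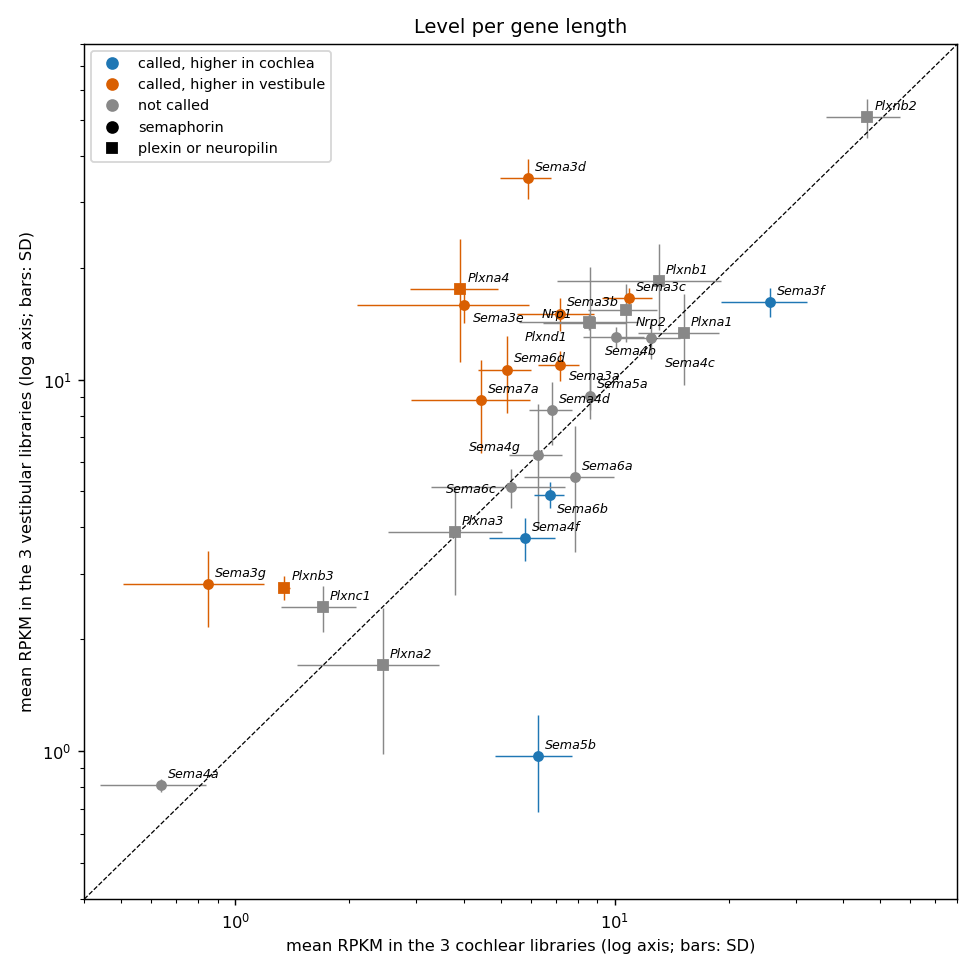
Mean RPKM of each gene in the 3 cochlear libraries (horizontal) against the 3 vestibular libraries (vertical), both on log axes with bars for the SD. Circles are semaphorins, squares are receptors, colours give the calls and the dashed line marks equal levels. Plxnb2 lies near the line at the upper end, Sema3d far above it (5.89 against 34.9 RPKM) and Sema5b far below it (6.28 against 0.969 RPKM).

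For 14 pairs of a ligand and a receptor known to bind each other, the values were set side by side. Among these 14, Sema3a and Plxna4 were the 1 pair in which both genes were called in the same direction. The Sema3a call was lost in 4 of the 6 fits with 1 library left out. Sema3e was called as higher in the vestibule at 1.86 on the log2 scale, while its receptor Plxnd1 was at 0.59 and was not called. Sema3f was called as higher in the cochlea at -0.78, while Nrp2 was at 0.40 and was not called. Sema5b was at -2.82 while its receptors Plxna1 and Plxna3, at -0.31 and -0.10, were not called. Sema7a was called at 0.88 and Plxnc1, at 0.40, was not. Of Sema5a and Plxnb3 only the receptor was called, at 0.92. Sema6d was called at 0.91 and Plxna1, at -0.31, was not. Sema6a was at -0.65 and was not called, beside Plxna2 at -0.65, not called, and Plxna4, called at 2.03. In the pairs of Sema3a with Nrp1 and Sema3f with Plxna3 only the ligand was called, and in those of Sema4d with Plxnb1 and Sema4c with Plxnb2 neither gene was. The 14 pairs leave out others, and Sema3d is in none of them. Sema6b, not among the 14 pairs, was called towards the cochlea and its receptor Plxna4 towards the vestibule. Sema6d, also a class 6 ligand but not paired with Plxna4 here, was called towards the vestibule, as Plxna4 was. Whether a ligand's change differed from that of its receptor was not tested.

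Other genes of the pathway were read from a list of 54, of which 8 were called as higher in the vestibule, 13 as higher in the cochlea and 33 were not called. Their median log2 fold change was -0.16, and the shares of all genes were the 15.8% and 11.6% given above. The count of 8 was 4 without cochlea replicate 2 and 5 without cochlea replicate 1 or vestibule replicate 1, and the genes that lost the call are given below (per-gene values were added after seeing the data). Of 14 further co-receptors and receptors, 4 were called as higher in the vestibule and 1 as higher in the cochlea. Kdr, the main VEGF receptor of endothelium and a partner of neuropilin 1, stood at 20.3, 14.0 and 18.6 CPM in the cochlea and at 242, 197 and 204 CPM in the vestibule. This was a log2 fold change of 3.60 (SE 0.18, edgeR adjusted p = 5.6e-06), without overlap. Chl1, an adhesion molecule of the L1 family that forms complexes with neuropilins, rose by 2.06 (SE 0.22, edgeR adjusted p = 0.00019), and Flt4, a receptor of VEGF-C, by 1.09 (SE 0.28, adjusted p = 0.021). Flt4 was not called without cochlea replicate 1, cochlea replicate 2 or vestibule replicate 1 (edgeR adjusted p from 0.060 to 0.081), and Flt1, the fourth of these receptors, was not called without cochlea replicate 2 (adjusted p = 0.066). Nrcam, another member of the L1 family, was the 1 gene higher in the cochlea, at -1.31 (SE 0.16, edgeR adjusted p = 0.00047).

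Of 5 VEGF ligands that can engage neuropilins or their partner receptors, 2 were higher in each tissue. Vegfc (0.89, SE 0.19, edgeR adjusted p = 0.0074) and Vegfa (0.67, SE 0.21, adjusted p = 0.040) were higher in the vestibule. The call on Vegfa was lost when any 1 of cochlea replicates 1 and 2 and vestibule replicates 1 and 2 was left out (edgeR adjusted p from 0.091 to 0.13) and, narrowly, with limma-voom (adjusted p = 0.051). Pgf (-1.75, SE 0.21, edgeR adjusted p = 0.00037) and Vegfd (-1.58, SE 0.32, adjusted p = 0.0067) were higher in the cochlea, and Vegfd did not exceed 1.35 CPM in any vestibular library.

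Among 35 intracellular effectors, 2 were higher in the vestibule, 10 higher in the cochlea and 23 were not called. The shares of all genes were 15.8% and 11.6%. Crmp1, a collapsin response mediator protein that acts on microtubules downstream of Sema3a, stood at 80.8, 80.9 and 35.7 CPM in the cochlea and at 19.96, 10.9 and 15.4 CPM in the vestibule, a log2 fold change of -2.09 (SE 0.34, edgeR adjusted p = 0.0019). Rnd3, a small GTPase, was at -1.87 (SE 0.16, edgeR adjusted p = 7.4e-05), and Dpysl2, a relative of Crmp1, at -1.41 (SE 0.14, adjusted p = 0.00013). Higher in the vestibule were Tiam1, which activates Rac (1.0, SE 0.21, edgeR adjusted p = 0.0068), and Fes, a kinase that phosphorylates these mediators (0.92, SE 0.27, adjusted p = 0.038). Fes lost its call when any 1 of the same 4 libraries was left out (edgeR adjusted p from 0.10 to 0.13). All 5 members of the Crmp1 family were called as higher in the cochlea, the other 3 being Dpysl5 (-1.08), Dpysl3 (-0.81) and Dpysl4 (-0.53), which are named because their values were seen. Dpysl4 was not called without vestibule replicate 2 (edgeR adjusted p = 0.093). The other pathway genes named with a value here kept their call whichever library was left out.

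Markers of several cell types differed between the tissues as well. Of 13 neuronal markers tested 6 were called, all higher in the cochlea, and the 14 listed summed to 841, 836 and 398 CPM in the cochlea and 489, 241 and 300.4 CPM in the vestibule, with Neurod1 under 1 CPM throughout. Crmp1, Dpysl3 and Dpysl5 were likewise lowest among cochlear libraries in replicate 3. Dpysl2, however, was lowest in replicate 1 and Dpysl4 in replicate 2. Of 10 endothelial markers 8 were higher in the vestibule and 1 in the cochlea, and their sum was 223 to 288 CPM in the cochlea and 286 to 404 CPM in the vestibule. The log2 fold changes of these 8 ran from 0.69 to 1.80. Kdr (3.60) and Sema3g (1.62) were called in the same direction, while Plxnd1 (0.59) was not called. All 10 macrophage markers were higher in the vestibule (117 to 139 CPM against 422 to 532 CPM in sum), as were all 6 melanocyte markers (32.9 to 66.8 CPM against 267 to 349.6 CPM). The vestibule was also higher for 7 of 10 hair cell, 6 of 8 dark cell and stria, 4 of 10 mesenchyme, 3 of 10 Schwann cell and 2 of 9 tested cartilage markers. The cochlea was higher for 7 of 10 supporting cell, 2 mesenchyme and 1 cartilage markers, and 2 supporting cell markers were higher in the vestibule. Of all genes tested, 15.8% were called as higher in the vestibule and 11.6% as higher in the cochlea. None of the 6 tested skeletal muscle markers was called, and Tnnc2 was at 0 in all 6 libraries. The part of these cell types in the values of the semaphorins, plexins, neuropilins and other pathway genes was not tested.

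Some genes share exon bases with genes on the opposite strand, and the strand setting of the counting is not given in the sources used here. Plxna1 shares 970 bases (10.7% of its exon bases) with Gm26811, which averaged 0.207 CPM, and Plxnb1 shares 257 bases (2.68%) with Gm7628, which averaged 6.68 CPM. Sema4c shares 334 bases (7.27%) with D430040D24Rik.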

How the data were processed

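RNA-seq was done on 3 cochlear and 3 vestibular libraries from a stranded kit. The deposited counts are whole, unnormalized numbers of read pairs on each Ensembl gene of GRCm38, made by the authors with htseq-count. The submitters' processing notes name TopHat2 2.1.0, SAMtools 0.1.18, HTSeq 0.5.4p5 and edgeR 3.4.2. The deposited matrix of log2 RPKM follows the counts scaled by library size without TMM. Lines of counts in no single gene, 18.5% to 20.6% of each library, stayed out of library sizes and tests.

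The test ran on genes that reached 1 CPM in 3 or more libraries, in edgeR 4.0.16 (R 4.3.3) with the quasi-likelihood test, TMM scaling, no replicate block, Benjamini-Hochberg adjustment and an FDR of 0.05. The test was also run on simulated counts with a common dispersion for all genes and no differences in tissue content. That run does not show how the test performs on these libraries. Alternatives were other scalings and filters, DESeq2 1.42.0, limma-voom (limma 3.58.1), a looser threshold (FDR of 0.1, fold change over 1.3), a replicate block and leaving out each library. SEs follow from the F statistic. Coordinates are GENCODE vM21. All 31 members are accounted for, called members with the value of each library, and of the pathway genes the 3 called with the largest change in each direction per sublist were named. The members and lists were chosen with earlier results of these data known. Figures were drawn with matplotlib 3.10.9.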

Additional observations from a re-analysis of the deposited data

How the results depend on the processing

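The same 14 members were called with library sizes alone, DESeq2's size factors in edgeR, upper quartile scaling, limma-voom and edgeR's own filter, and DESeq2 and edgeR without a filter added Nrp1 and Sema6a to them. Library sizes alone moved the median of all genes to 0.13. Single members kept their direction and side of the threshold in 387 recomputed values, 21 lost the call, 8 gained it and 18 changed sign. All changes of sign were in genes that were not called. With library sizes alone the log2 fold change became 0.054 for Sema4c, 0.0031 for Sema4g, 0.075 for Sema5a and 0.038 for Plxna3. That of Plxnb2 became -0.0071 with DESeq2 and with its size factors in edgeR, and -0.0065 without a filter. With 1 library left out, values ran from -0.14 to 0.084 for Sema4c, -0.37 to 0.11 for Sema4g, -0.11 to 0.081 for Sema5a, -0.33 to 0.16 for Sema6c, -0.36 to 0.11 for Plxna3 and -0.16 to 0.15 for Plxnb2. With 1 library left out, 1342 to 2694 genes were called as higher in the vestibule and 925 to 1863 in the cochlea. The ligands were then 5 to 7 higher in the vestibule (5 without vestibule replicate 1) and 2 to 4 in the cochlea (2 without vestibule replicate 2), the receptors 2 to 5 in the vestibule (5 without cochlea replicate 3), and the pathway genes 4 to 9 in the vestibule (4 without cochlea replicate 2, 5 without cochlea replicate 1 or vestibule replicate 1). The cause of these changes was not tested.

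Libraries of the same replicate number did not deviate together (r across the genes tested = -0.18, -0.26 and -0.48), so the number was not taken as a pairing. A fit with the replicate block called 9 members, all among the 14, and not Sema3a, Sema3c, Sema3f, Sema4f and Sema6b. Under the block 1009 genes, 1 ligand among them (Sema5b), were called as higher in the cochlea, and 5 pathway genes as higher in the vestibule.

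The lowest value of a member in any library was 2.37 CPM, for Sema3g in cochlea replicate 2. With 1 library left out a tissue keeps only 2.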
